A study of Mus musculus with 20 samples.

Results

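Meis1, Meis2, Shox2, Hand2, Lhx2, Lhx9, Msx1 and Msx2 encode transcription factors that pattern the mouse limb along its length, and they are described here as a group. They were taken by name from the platform's gene symbols and make up 8 of the 19938 genes tested. Each is represented by 1 probe set that carries only its own symbol (identifiers 10384504 for Meis1, 10486041 for Meis2, 10498568 for Shox2, 10571860 for Hand2, 10471833 for Lhx2, 10358272 for Lhx9, 10529651 for Msx1 and 10409314 for Msx2). RNA came from single limbs of 129Sv mouse embryos at embryonic day 13.5, hybridised to Affymetrix whole-transcript arrays. The 4 groups of 5 arrays were wild-type forelimbs, wild-type hindlimbs, Lmx1b -/- forelimbs and Lmx1b -/- hindlimbs, with right and left limbs mixed in each, and titles number the forelimbs 1 to 5 and the hindlimbs 6 to 10 within a genotype. Lmx1b, the factor that gives dorsal limb mesenchyme its identity, is absent from the whole embryo in the mutants, and no Cre line or other transgene is named in the labels. Each sample is a whole limb, so dorsal and ventral, or proximal and distal, tissue was not separated.

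The limb grows out under signals from the apical ectodermal ridge, a strip of epidermis at its tip, while retinoic acid acts from the flank. Meis1 and Meis2, TALE homeodomain proteins, mark the proximal limb, and Shox2, a paired-related homeodomain protein, is needed in the mouse for growth of the upper arm and thigh bones. Hand2, a bHLH protein of the posterior limb, acts upstream of Shh. Lhx2 and Lhx9 are LIM-homeodomain proteins, as Lmx1b is, and in distal mesenchyme they relay ridge signals. Msx1 and Msx2 are homeodomain repressors of distal mesenchyme and epidermis that respond to BMP signals.

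The samples matched their labels. Lmx1b averaged 6.30 ± 0.127 on the log2 scale in wild-type and 5.72 ± 0.079 in knockout forelimbs, and 6.45 ± 0.083 in wild-type and 5.92 ± 0.114 in knockout hindlimbs (SD, n = 5 each). Where its probes lie relative to the deleted part is not known, so a signal remaining in the knockouts does not measure intact message. Tbx5, the forelimb factor, averaged 8.50 in wild-type forelimbs and 4.73 in wild-type hindlimbs, Pitx1, the hindlimb factor, averaged 5.40 and 8.49, and Prrx1, a marker of limb mesenchyme, was between 9.72 and 9.80 in all 4 groups. A list of 10 mesenchyme markers, which holds Prrx1, the limb-type genes, Hoxa13 and Hoxd13, was lowest in wild-type forelimbs, with a mean log2 level of 8.14 (range 7.95 to 8.20) against 8.35 (8.22 to 8.48) in knockout forelimbs, 8.41 in wild-type and 8.36 in knockout hindlimbs. By limma, 0 of the 10 were called in knockout forelimbs and 4 had an unadjusted p under 0.05, as did 13.2% of all genes. A member of the list, Prrx2, averaged 7.64 in wild-type and 7.99 in knockout forelimbs. Y-linked transcripts set 13 male arrays apart from 7 female ones: male limbs made up 5 of 5 wild-type forelimbs, 2 of 5 knockout forelimbs and 3 of 5 limbs in each hindlimb group. Some limbs may share an embryo, which the labels leave unsaid, and p-values cover only the spread among these samples. In RNA from a whole limb, fewer cells of a type and less RNA per cell cannot be told apart.

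Over both limb types, 3 of the 8 genes were higher in the knockouts (Hand2, Lhx2 and Lhx9) and 1 was lower (Shox2), by limma with Benjamini-Hochberg adjustment over all genes. Among all genes tested, 0.466% were called higher and 1.57% lower in that comparison, 2.04% in either direction. In forelimbs Hand2, Lhx2 and Lhx9 rose, 3 of 8 against 0.241% of all genes called higher and 1.27% called in either direction. In hindlimbs Shox2 fell, 1 of 8 against 0.226% of all genes called lower and 0.231% called in either direction. The 8 genes were chosen with earlier results of these data known, so these shares describe them and are no independent test. Their mean levels lay between percentiles 69.7 (Msx2) and 89.9 (Msx1) of all genes, while the shares cover genes of every level. The median change over the 8 genes was 0.16 on the log2 scale over both limb types, 0.32 in forelimbs and 0.15 in hindlimbs, while the median over all genes lay within 0.01 of zero each time. Meis1, Meis2, Msx1 and Msx2 did not pass the threshold in these 3 comparisons. Markers of other cell types differed beside these changes. For skeletal muscle, the mean log2 level over 25 genes was 7.57 in wild-type forelimbs (range 7.35 to 7.76) and 7.19 in knockout forelimbs (6.97 to 7.34), against 6.92 (6.65 to 7.06) and 6.86 (6.73 to 7.07) in wild-type and knockout hindlimbs. Of the 25 muscle genes, 6 were called lower in knockout forelimbs, where 1.27% of all genes were called in either direction. Blood and macrophage markers averaged 6.50 in wild-type forelimbs (6.35 to 6.61) and 6.14 in knockout forelimbs (5.83 to 6.35), with 2 of 13 called lower (Csf1r and Mrc1). Also called lower there were 2 of 14 nerve markers (Gap43 and Dcx) and 1 of 15 endothelial markers (Tek). Of 17 cartilage markers 0 were called, and 3 had an unadjusted p under 0.05, as did 13.2% of all genes. The part of the blood, nerve and endothelial markers in the changes of the 8 genes was not tested.

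**Figure D1:**
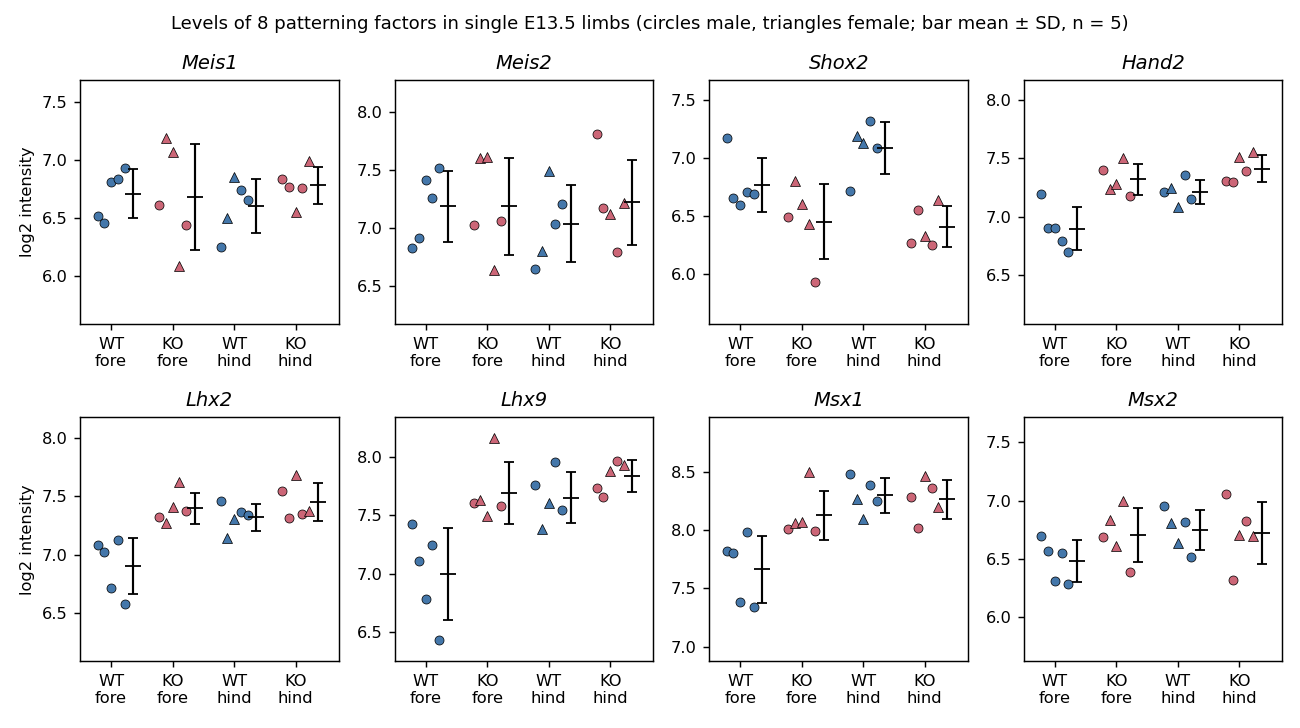
Log2 intensity of each of the 8 factors (vertical axes) on every array, by genotype and limb type; circles are male and triangles female limbs, blue is wild type and red knockout, and bars give the mean ± SD of 5 limbs. Shox2 points lie lower in knockout than in wild-type hindlimbs, from 6.25 to 6.64 against 6.71 to 7.31, and Lhx9 points lie higher in knockout than in wild-type forelimbs, from 7.49 to 8.16 against 6.43 to 7.43.

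Shox2 was the only one of the 8 to fall. In hindlimbs its log2 level was 6.71, 7.18, 7.12, 7.31 and 7.08 on the wild-type arrays and 6.27, 6.55, 6.33, 6.25 and 6.64 on the knockout arrays. In forelimbs it was 7.17, 6.65, 6.60, 6.70 and 6.69 in wild type and 6.49, 6.80, 6.60, 6.43 and 5.93 in knockouts. The hindlimb groups did not overlap, as was true with the knockouts lower for 0.903% of all genes. The forelimb groups did overlap, with 3 of 5 knockouts below every wild-type limb, and 1 wild-type forelimb, replicate 1, stood above the other wild-type forelimbs. The fall was 1.60-fold in hindlimbs (log2 change -0.67, SE 0.140, limma adjusted p = 0.0409) and -0.49 over both limb types (SE 0.099, adjusted p = 0.00833). The forelimb change of -0.31 did not pass (SE 0.140, adjusted p = 0.337, 95% interval -0.60 to -0.02). The hindlimb call ended when any 1 of 12 of the 20 arrays was left out (wild-type hindlimb 7 to 10, knockout hindlimb 6, 8 and 9, wild-type forelimb 2, 4 and 5, knockout forelimb 1 and 4), with adjusted p from 0.0537 to 0.139 and changes from -0.68 to -0.62. It also ended, at changes of -0.67 to -0.68, with array centring (adjusted p = 0.0601), the muscle covariate (0.0502), the Hoxa13 and Hoxd13 covariate (0.0511), a block for side and number (0.0857) and male arrays only (0.505). The call over both limb types held without each array in turn. With male arrays only, the Shox2 change over both limb types was -0.61 (adjusted p = 0.0571).

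Promoter sequence is shown for Shox2, the factor that fell, for Hand2 and Lhx9, which rose, and for Msx1, which rose from forelimb to hindlimb in wild type. Each run is the 250 bases before the start of the RefSeq gene on GRCm38.p6, in the gene's own direction, at chr3:66981772-66982021 (minus strand) for Shox2, chr8:57320733-57320982 (plus strand) for Hand2, chr1:138842445-138842694 (minus strand) for Lhx9 and chr5:37824586-37824835 (minus strand) for Msx1. Capitals mark TAAT, the core that homeodomain proteins bind, on either strand.
Shox2: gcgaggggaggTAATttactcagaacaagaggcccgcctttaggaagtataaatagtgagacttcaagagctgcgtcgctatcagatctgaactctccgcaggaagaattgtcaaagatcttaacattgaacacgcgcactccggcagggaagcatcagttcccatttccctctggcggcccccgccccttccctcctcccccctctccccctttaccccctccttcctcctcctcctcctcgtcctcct
Hand2: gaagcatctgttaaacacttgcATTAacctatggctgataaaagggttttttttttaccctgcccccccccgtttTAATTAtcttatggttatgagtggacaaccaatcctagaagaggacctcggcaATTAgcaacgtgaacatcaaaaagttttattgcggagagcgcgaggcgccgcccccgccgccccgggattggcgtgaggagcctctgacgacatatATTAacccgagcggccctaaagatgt
Lhx9: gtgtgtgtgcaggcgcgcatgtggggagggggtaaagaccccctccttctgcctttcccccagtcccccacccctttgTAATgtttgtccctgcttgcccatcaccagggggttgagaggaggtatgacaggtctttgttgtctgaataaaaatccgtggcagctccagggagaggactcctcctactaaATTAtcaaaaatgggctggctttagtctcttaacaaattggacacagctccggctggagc
Msx1: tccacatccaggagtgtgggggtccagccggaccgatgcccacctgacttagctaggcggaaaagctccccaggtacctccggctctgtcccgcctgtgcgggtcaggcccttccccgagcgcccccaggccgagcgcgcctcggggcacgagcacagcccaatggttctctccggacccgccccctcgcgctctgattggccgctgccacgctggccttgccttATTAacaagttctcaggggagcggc

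TAAT was found once in the Shox2 window, 5 times for Hand2, 2 times for Lhx9 and once for Msx1. Of all 32851 windows of this length, 54.9% held it. Windows of all 8 genes matched by symbol, 9 windows in all because Lhx2 has 2. TAAT was found 5 times for Msx2 and 2 times for Meis2, and was not found for Meis1 or in either Lhx2 window. The longer TAATTA, a core that LIM-homeodomain proteins bind, was in the Hand2 and Msx2 windows and in 4.84% of all windows. Each TAATTA holds 2 overlapping TAAT matches, 1 on each strand. The Meis core TGACAG was in the Lhx9 window alone among the 9, and in 15.9% of all windows. CANNTG, the E-box that bHLH proteins bind, was in the Meis1, Hand2, Lhx9, Msx1 and Msx2 windows and in 66.2% of all windows. These matches describe the letters and do not show that a factor binds there.

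Hand2 rose in the knockout forelimbs. Its log2 level was 7.20, 6.91, 6.90, 6.79 and 6.69 in wild-type and 7.40, 7.23, 7.28, 7.51 and 7.18 in knockout forelimbs. Of the knockout forelimbs, 4 of 5 were above every wild-type forelimb, and the groups overlapped because of wild-type replicate 1 and knockout replicate 5. In hindlimbs the levels were 7.21, 7.25, 7.09, 7.36 and 7.15 in wild type and 7.30, 7.30, 7.51, 7.39 and 7.56 in knockouts, and the groups overlapped. The rise was 1.34-fold in forelimbs (log2 change 0.42, SE 0.086, limma adjusted p = 0.0131) and 0.31 over both limb types (SE 0.061, adjusted p = 0.00644). The hindlimb difference of 0.20 did not pass (SE 0.086, adjusted p = 0.805). The forelimb call ended without wild-type forelimb 5 (adjusted p = 0.0541) or knockout forelimb 4 (0.0524), and the call over both limb types held without each array in turn. With male arrays only, the Hand2 change over both limb types was 0.24 (adjusted p = 0.423).

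Lhx2 and Lhx9, the LIM-homeodomain pair, also rose in the knockout forelimbs. Lhx2 had log2 levels of 7.08, 7.02, 6.71, 7.13 and 6.58 in wild-type and 7.32, 7.27, 7.41, 7.62 and 7.37 in knockout forelimbs. Lhx9 had 7.43, 7.11, 6.78, 7.25 and 6.43 in wild-type and 7.61, 7.63, 7.49, 8.16 and 7.58 in knockout forelimbs. For both genes every knockout forelimb was above every wild-type one, as it was for 0.813% of all genes. Wild-type replicates 3 and 5 were the lowest of the forelimbs for both, and knockout replicate 4 the highest. The rise was 1.41-fold for Lhx2 (log2 change 0.50, SE 0.102, limma adjusted p = 0.0135). For Lhx9 it was 1.62-fold (0.70, SE 0.154, adjusted p = 0.0231). Both forelimb calls ended without any 1 of those 3 arrays, with adjusted p from 0.0518 to 0.0556 for Lhx2 and from 0.0736 to 0.0877 for Lhx9. With male arrays only, which leaves 2 knockout forelimbs, the forelimb adjusted p was 0.345 for Hand2 and Lhx2 and 0.422 for Lhx9, and in a fit with a covariate for the Y-linked level it was 0.0737 for Hand2, 0.0553 for Lhx2 and 0.0773 for Lhx9. Fitted on the forelimb groups alone, Hand2, Lhx2 and Lhx9 had adjusted p of 0.0654, 0.0578 and 0.0944. Their forelimb changes were 0.24, 0.26 and 0.28 with the muscle covariate and 0.21, 0.22 and 0.21 with the Hoxa13 and Hoxd13 covariate, none of them called (adjusted p from 0.503 to 0.898).

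In hindlimbs neither gene of the pair passed the threshold. Lhx2 had log2 levels of 7.46, 7.14, 7.31, 7.37 and 7.34 in wild type and 7.54, 7.31, 7.69, 7.35 and 7.37 in knockouts, and the change of 0.13 had an SE of 0.102 (limma adjusted p = 0.96). Lhx9 had 7.76, 7.38, 7.61, 7.96 and 7.55 in wild type and 7.73, 7.66, 7.89, 7.97 and 7.94 in knockouts, and the change of 0.19 had an SE of 0.154 (adjusted p = 0.975). The groups overlapped for both. Over both limb types the changes were 0.31 for Lhx2 (SE 0.072, adjusted p = 0.0227) and 0.44 for Lhx9 (SE 0.109, adjusted p = 0.036). The Lhx2 call over both limb types ended without wild-type forelimb 3 (adjusted p = 0.052) or wild-type hindlimb 7 (0.0535). The Lhx9 call ended without any 1 of 10 arrays (wild-type forelimb 3 and 5, wild-type hindlimb 7, 8 and 10, knockout forelimb 2 and 4, knockout hindlimb 8, 9 and 10), with adjusted p from 0.0545 to 0.0805.

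Msx1 had the same order of forelimb values without passing the threshold. It was at 7.82, 7.80, 7.38, 7.98 and 7.34 in wild-type and at 8.01, 8.06, 8.07, 8.50 and 7.99 in knockout forelimbs. Every knockout was above every wild-type forelimb, but narrowly, since the highest wild-type value (7.98, replicate 4) and the lowest knockout value (7.99, replicate 5) were next to each other. The change was 0.46 (SE 0.122, limma adjusted p = 0.0658, 95% interval 0.21 to 0.72). Leaving out wild-type forelimb 1 or 4 brought it past the threshold (adjusted p = 0.0474 and 0.0391). On all arrays, the forelimb change of Msx1 was called after a filter on dim genes (adjusted p = 0.0452). It was also called with the block for side and number (0.0314) and with the Meis level as a covariate (0.0253). The other processing choices on the whole set of arrays, and male arrays only, gave no call. In hindlimbs Msx1 was at 8.49, 8.27, 8.10, 8.39 and 8.26 in wild type and at 8.29, 8.02, 8.46, 8.36 and 8.20 in knockouts. Those groups overlapped, and the change was -0.03 (SE 0.122, adjusted p = 0.996).

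Msx2 stayed within the spread of the groups. Its forelimb levels were 6.70, 6.57, 6.31, 6.55 and 6.28 in wild type and 6.69, 6.83, 6.61, 6.999 and 6.39 in knockouts, a difference of 0.22 (SE 0.125, limma adjusted p = 0.478). Its hindlimb group means were 6.75 ± 0.170 in wild type and 6.72 ± 0.267 in knockouts (SD, n = 5 each). Over both limb types the change was 0.10, with a 95% interval from -0.09 to 0.28.

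The proximal pair gave no call in any of the 6 comparisons. Meis1 averaged 6.71 ± 0.208 in wild-type and 6.68 ± 0.453 in knockout forelimbs, and 6.60 ± 0.234 in wild-type and 6.78 ± 0.158 in knockout hindlimbs. Meis2 averaged 7.19 ± 0.306 and 7.19 ± 0.415 in the forelimb groups, and 7.04 ± 0.333 and 7.22 ± 0.367 in the hindlimb groups. The spread within groups was wide: knockout forelimbs alone ran from 6.09 to 7.19 for Meis1 and from 6.64 to 7.61 for Meis2. The 95% interval of the change over both limb types was -0.16 to 0.31 for Meis1 and -0.20 to 0.39 for Meis2, by limma. Changes of the size seen for Shox2 or Lhx9 over both limb types lay outside the Meis intervals. A rise of the size seen for Hand2 and Lhx2 lay inside that of Meis2.

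Whether the genotype changes differed between limb types was tested as a difference of effects, and none of the 8 passed. By limma, 0 of 8 differences between the hindlimb and forelimb genotype effects were called, against 0.0201% of all genes, and 3 of the 8 had an unadjusted p under 0.05, as did 3.63% of all genes. These were Msx1, with a difference of -0.50 on the log2 scale (unadjusted p = 0.00887), Lhx2 with -0.36 (0.019) and Lhx9 with -0.51 (0.0286). For Shox2 the difference was -0.36 (unadjusted p = 0.0796), and for Hand2 it was -0.22 (0.0837). The adjusted p was 1.00 for all 8.

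**Figure D2:**
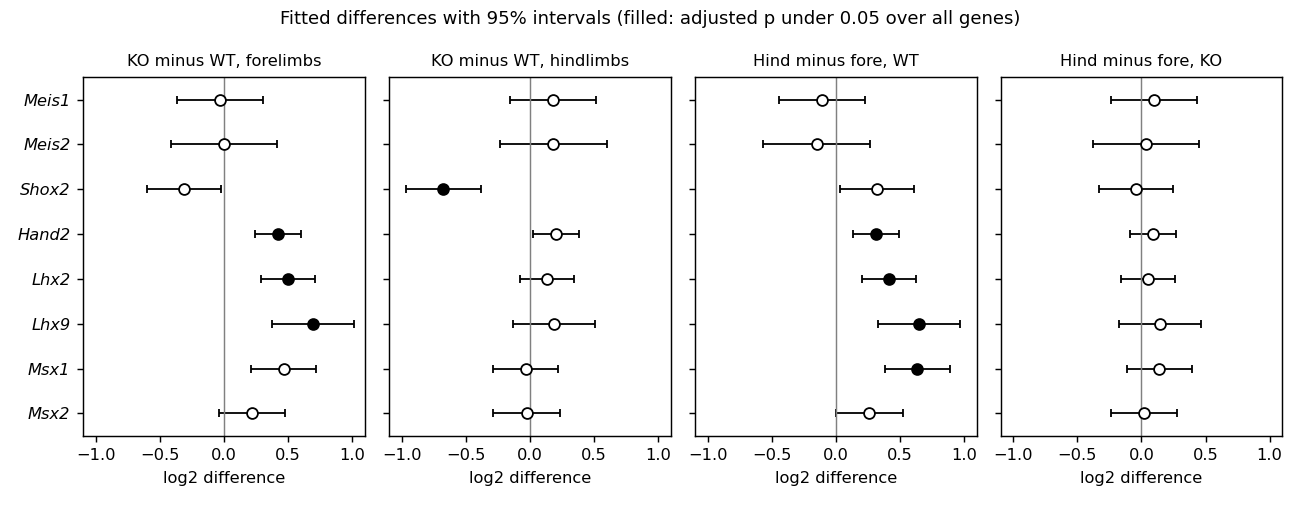
Log2 differences with their 95% intervals (horizontal axis) for each of the 8 factors in the genotype and limb-type comparisons; points are limma estimates, filled where the adjusted p is under 0.05, and the vertical line marks zero. In forelimbs the unadjusted intervals of Hand2, Lhx2, Lhx9 and Msx1 lie above zero and that of Shox2 below it, and between knockout limb types every interval holds zero.

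Wild-type hindlimbs differed from wild-type forelimbs in 4 of the 8 genes, all higher in the hindlimb: Hand2, Lhx2, Lhx9 and Msx1. The groups also differed in sex, since 5 of 5 of these forelimbs and 3 of 5 of these hindlimbs were male. Among all genes, 0.772% were called higher in wild-type hindlimbs, and 3.26% in either direction. This comparison uses the same wild-type forelimb arrays as the genotype comparison in forelimbs, so its values stand beside that one and not as separate support for it. Msx1 rose 1.55-fold from forelimb to hindlimb (log2 change 0.64, SE 0.122, limma adjusted p = 0.00479), and Lhx9 rose 1.57-fold (0.65, SE 0.154, adjusted p = 0.0198). Lhx2 rose by 0.42 (SE 0.102, adjusted p = 0.0246) and Hand2 by 0.31 (SE 0.086, adjusted p = 0.0473). For Lhx2 and Msx1 every wild-type hindlimb was above every wild-type forelimb, as for 1.78% of all genes, and for Lhx9 4 of 5 were. Shox2 (0.32, SE 0.140, adjusted p = 0.247) and Msx2 (0.26, SE 0.125, adjusted p = 0.294) did not pass, nor did Meis1 (-0.11) or Meis2 (-0.15).

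The Msx1 call between wild-type limb types held without each array in turn. The Lhx2 and Lhx9 calls ended without wild-type forelimb 3 or 5 or wild-type hindlimb 6 or 9, with adjusted p from 0.0702 to 0.0845 for Lhx2 and from 0.059 to 0.0782 for Lhx9. The Hand2 call ended without any 1 of 13 arrays (wild-type forelimb 2 to 5, wild-type hindlimb 6, 7, 9 and 10, knockout forelimb 1 to 3, knockout hindlimb 8 and 9), with adjusted p from 0.0515 to 0.154. Hand2 also lost its call with array centring (adjusted p = 0.0995), male arrays only (0.105) and a Y-linked covariate (0.107). It did so with the replicate block (0.0626), the compared groups only (0.0746), and the Meis (0.0511) or side (0.0525) covariate. Lhx2 lost its call with the Y-linked covariate (0.0504) and kept it with male arrays only (0.0428). Lhx9 and Msx1 kept theirs in both of these fits. With the Hoxa13 and Hoxd13 covariate none was called. Muscle markers differed here too, and 23 of 25 were called lower in wild-type hindlimbs, where 3.26% of all genes were called in either direction. With the muscle level as a covariate in the fit, the wild-type limb-type differences were 0.00 for Hand2, 0.02 for Lhx2, -0.06 for Lhx9 and 0.13 for Msx1. With it, the genotype changes over both limb types were 0.21 for Hand2 (adjusted p = 0.296), 0.18 for Lhx2 (0.55) and 0.20 for Lhx9 (0.663), and none of these calls held. The Shox2 call ended too (adjusted p = 0.111), though its change was -0.49 with and without the covariate. Muscle levels in wild-type forelimbs (7.35 to 7.76) did not overlap those in wild-type hindlimbs (6.65 to 7.06) or knockout forelimbs (6.97 to 7.34). This fit thus separates muscle level from group poorly, and genes called between wild-type limb types went from 650 to 11 with it.

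Between knockout hindlimbs and forelimbs, 0 of 8 were called by limma, with 0.617% of all genes called, and 0 of 8 had an unadjusted p under 0.05. The differences ran from -0.04 for Shox2 to 0.14 for Lhx9 and Msx1. Lhx9 averaged 6.998 ± 0.397 in wild-type forelimbs, 7.65 ± 0.219 in wild-type hindlimbs, 7.69 ± 0.267 in knockout forelimbs and 7.84 ± 0.135 in knockout hindlimbs (SD, n = 5 each). Wild-type forelimbs were the lowest, and the comparisons tested among the other groups did not pass. Lhx2 gave 6.90 ± 0.244, 7.32 ± 0.116, 7.40 ± 0.135 and 7.45 ± 0.159, and Hand2 gave 6.90 ± 0.188, 7.21 ± 0.103, 7.32 ± 0.133 and 7.41 ± 0.120, in the same order of groups. For Msx1 the wild-type hindlimb mean was the highest (8.30 ± 0.148), followed by knockout hindlimbs (8.27 ± 0.169), knockout forelimbs (8.13 ± 0.213) and wild-type forelimbs (7.67 ± 0.287). Shox2 was also highest in wild-type hindlimbs (7.08 ± 0.225), followed by wild-type forelimbs (6.76 ± 0.232). Both knockout means of Shox2 were lower, at 6.45 ± 0.323 in forelimbs and 6.41 ± 0.176 in hindlimbs.

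Hoxa13 and Hoxd13, the Hox genes of the hand and foot, were likewise lowest in wild-type forelimbs. The mean of their log2 levels was 7.84 ± 0.332 in wild-type forelimbs, 8.47 ± 0.140 in wild-type hindlimbs, 8.39 ± 0.225 in knockout forelimbs and 8.48 ± 0.205 in knockout hindlimbs (SD, n = 5 each). With that mean as a covariate, the genotype changes over both limb types were 0.20 for Hand2 (limma adjusted p = 0.132), 0.17 for Lhx2 (0.279), 0.19 for Lhx9 (0.376) and 0.03 for Msx1. The Shox2 change was -0.48 with it (adjusted p = 0.0693). That mean ran from 7.31 to 8.18 in wild-type forelimbs. It ran from 8.17 to 8.75 in knockout forelimbs and from 8.35 to 8.69 in wild-type hindlimbs. Like the muscle fit, this fit separates its covariate from group poorly, so the lost calls do not test the share of distal tissue. With the mean level of Meis1 and Meis2 as a covariate instead, Shox2, Hand2, Lhx2 and Lhx9 all kept their calls. That level differed little between genotypes, at 6.95 ± 0.254 in wild-type and 6.94 ± 0.432 in knockout forelimbs. In hindlimbs it was 6.82 ± 0.277 in wild type and 7.003 ± 0.218 in knockouts. The Meis fit could thus take up little of a genotype change, and the kept calls do not test the share of proximal tissue. The part that the share of distal tissue in each dissected limb plays in these differences was not tested.

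The 8 genes also varied within groups, where genotype and limb type are constant. After each group's mean was subtracted, the log2 levels of Meis1 and Meis2 had Pearson's r of 0.81 (Spearman's rho 0.83) over the 20 arrays. Lhx2 and Msx1 had r of 0.86 (rho 0.84), Lhx9 and Msx1 0.82 (rho 0.76), Lhx2 and Lhx9 0.78 (rho 0.71), and Msx1 and Msx2 0.72 (rho 0.75). Limbs of a group with more of 1 distal gene thus tended to have more of the others. The Meis genes ran against them, with r of -0.59 between Meis2 and Hand2, -0.56 between Meis2 and Lhx9, and -0.54 between Meis1 and Msx1. The weakest of these 10 pairs were Meis2 with Lhx2 (-0.33), Meis1 with Msx2 (-0.28) and Meis2 with Msx2 (-0.26). Shox2 had r of 0.44 with Meis1 and with Hand2, 0.20 with Lhx9, 0.15 with Meis2 and with Msx2, -0.07 with Lhx2 and -0.02 with Msx1. These coefficients are descriptions, since all genes of an array share its RNA, its dissection and its normalization.

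**Figure D3:**
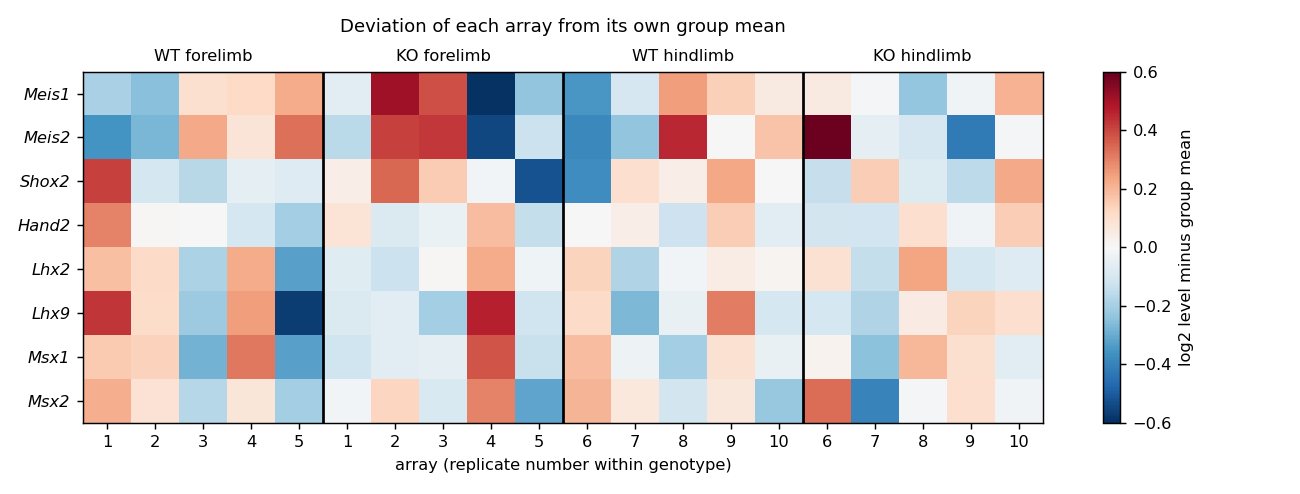
Deviation of each array's log2 level from its group mean (colour) for the 8 factors over the 20 arrays. Arrays with low Meis1 and Meis2 tend to have high Lhx2, Lhx9 and Msx1, as knockout forelimb 4 does with Meis1 at 6.09 and Msx1 at 8.50.

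The same deviations were set against marker lists. Hand2, Lhx2, Lhx9, Msx1 and Msx2 had r between -0.68 and -0.58 with the mean level of the muscle markers, while Shox2 had 0.01. With the mesenchyme markers r was 0.58 for Hand2, 0.69 for Lhx2, 0.65 for Lhx9, 0.57 for Msx1 and 0.12 for Msx2, though that list holds Hoxa13 and Hoxd13. With the epidermal markers it was -0.64 for Hand2, -0.66 for Lhx9, -0.51 for Msx1, -0.25 for Lhx2 and -0.21 for Msx2. Meis2 had r of 0.90 with the mean of 19 markers of epidermis and apical ridge, and Meis1 0.54. With the mesenchyme, cartilage and muscle markers r was -0.59, -0.46 and 0.51 for Meis1. For Meis2 these were -0.57, -0.64 and 0.41. The part of tissue shares in the opposed levels of Meis and distal genes was not tested. The epidermal list averaged 6.79 and 6.73 in wild-type and knockout forelimbs and 6.61 and 6.59 in wild-type and knockout hindlimbs, and none of its 19 genes was called for the genotype. Like genes were sought for each factor among 10975 others with a mean log2 level of at least 5 and a name that is not provisional. Each r below is among the highest of that many, and describes only. The 3 genes most like Meis2 were Dsp (r 0.95, rho 0.92) and Dsg2 (0.94, 0.89), which encode proteins of epithelial desmosomes, and Gabrp (0.95, 0.93), a GABA receptor subunit. Those most like Meis1 were Hoxc5 (0.83), Pappa2 and Frem1. Hand2 was most like Tead2 (0.90), Smox (0.90) and Hoxd11 (0.90), Lhx2 was most like St6gal1 (0.86), Msx1 (0.86) and Dach1 (0.84), and Lhx9 was most like Ncapg, Dixdc1 and Car14 (0.87 each). Msx1 was most like Lhx2, Lhx9 and Pheta1, Msx2 like Haus5 (0.82), Fkbp4 (0.81) and Ormdl1 (0.79), and Shox2 like Bysl (0.86), Cyrib and Parp1.

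Relatives and partners of the 8 genes were read from lists by family and pathway. Among 14 other TALE and proximal homeobox genes, including the Pbx partners of Meis proteins, limma called 0 for the genotype over both limb types and 0 for limb type in wild type, with 5 and 3 at an unadjusted p under 0.05, a cut that 14.7% and 16.5% of all genes passed. Over both limb types, 0.466% of all genes were called higher and 1.57% lower in the knockouts. Among 19 other LIM-homeodomain genes and cofactors, 0 rose and 6 fell in the knockouts. They were Lmx1b itself (-0.55, SE 0.049, adjusted p = 2.63e-07), Ldb2, a cofactor that bridges LIM-homeodomain proteins (-0.41, SE 0.057, adjusted p = 0.000185), Lhx8 (-0.28, SE 0.052, adjusted p = 0.00411), Lhx4 (-0.24, SE 0.059, adjusted p = 0.0373), and Lmo2 and Lmo4, LIM-only proteins that compete for Ldb cofactors (Lmo2 -0.18, SE 0.043, adjusted p = 0.0255). Lhx4 lost its call without any 1 of 12 arrays (adjusted p up to 0.0828) and Lmo2 without any 1 of 6 (up to 0.0579). With male arrays only, Lmx1b kept its call and Ldb2 (adjusted p = 0.0996) and Lhx8 (0.111) did not. In wild type, Isl1, the LIM-homeodomain gene that starts hindlimb growth, was higher in hindlimbs by 1.17 (SE 0.108, adjusted p = 1.05e-06), as was the cofactor Ssbp2 by 0.25 (SE 0.059, adjusted p = 0.019).

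Among 13 other Msx, Dlx, Prrx and Alx genes, 1 fell in the knockouts (1.57% of all genes were called lower). It was Alx1, at -0.86 over both limb types (SE 0.065, limma adjusted p = 3.39e-08), and its fall was larger in forelimbs than in hindlimbs by 0.83 (adjusted p = 0.0197). That difference was not called with male arrays only, the muscle covariate or the Hoxa13 and Hoxd13 covariate, fits in which 0 genes were called for the difference. In wild type Prrx2 was higher in hindlimbs by 0.44 (SE 0.094, adjusted p = 0.0113) and Alx1 was lower. Among 15 other bHLH and Id genes, 0 were called for the genotype by limma, with 3 at an unadjusted p under 0.05, against 14.7% of all genes. Id4, an inhibitor of bHLH proteins, was lower in wild-type hindlimbs by -0.74 on the log2 scale (SE 0.076, adjusted p = 4.84e-06).

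Of 16 other genes of the Hand2, Shh and Gli axis, 3 fell in the knockouts and 0 rose, against 1.57% and 0.466% of all genes. Grem1, the BMP antagonist that links Shh to the ridge, changed by -0.99 (SE 0.077, limma adjusted p = 4.12e-08), Hhip, a Shh target that binds hedgehog, by -0.49 (SE 0.103, adjusted p = 0.0126), and Disp1, which releases Shh, by -0.16 (SE 0.041, adjusted p = 0.0432). The Hhip call ended with male arrays only (adjusted p = 0.475) and with the muscle covariate (0.235). The Disp1 call ended without any 1 of 13 arrays (adjusted p up to 0.0923). Over both limb types Hand2 rose while these 3 genes fell. Retinoic acid and FGF signals set Meis and distal gene expression in the early limb bud. Of 23 genes of this signalling, 0 were called for the genotype over both limb types by limma. An unadjusted p under 0.05 was found for 1 of the 23, against 14.7% of all genes. Between wild-type limb types 3 of the 23 were higher in hindlimbs and 1 was lower. Among all genes, 0.772% were called higher there and 3.26% in either direction. Aldh1a2, which makes retinoic acid, was higher in hindlimbs by 1.36 (SE 0.252, adjusted p = 0.00363), as was Fgf10, the mesenchymal signal to the ridge, by 0.48 (SE 0.107, adjusted p = 0.0133). Crabp2, a retinoic acid carrier, was higher by 0.26 (SE 0.071, adjusted p = 0.0429), and Aldh1a3, another enzyme that makes retinoic acid, was lower, with a change of -0.38 (SE 0.091, adjusted p = 0.0233). Without single arrays the Crabp2 and Aldh1a3 calls ended in 11 and 3 fits, with adjusted p up to 0.129 and 0.0863. The Fgf10 call ended without wild-type forelimb 5 (adjusted p = 0.0505). With the muscle level as a covariate, Ssbp2, Prrx2, Aldh1a2, Aldh1a3, Crabp2 and Fgf10 lost their calls between wild-type limb types, while Isl1, Alx1 and Id4 kept theirs. Of the 9 Hox genes from paralogue groups 9 to 13 of the A and D clusters, 0 were called for the genotype by limma and 5 had an unadjusted p under 0.05, against 14.7% of all genes. Their median change was 0.18 over both limb types, with the median of all genes within 0.01 of zero. In forelimbs 8 of the 9 had an unadjusted limma p under 0.05, against 13.2% of all genes, and the median change was 0.33. In hindlimbs 0 of the 9 did, against 5.76%, and the median was 0.03. Between wild-type limb types, which share the wild-type forelimb arrays, Hoxa9, Hoxa10 and Hoxa13 were called higher in hindlimbs and Hoxd9 lower.

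**Figure D4:**
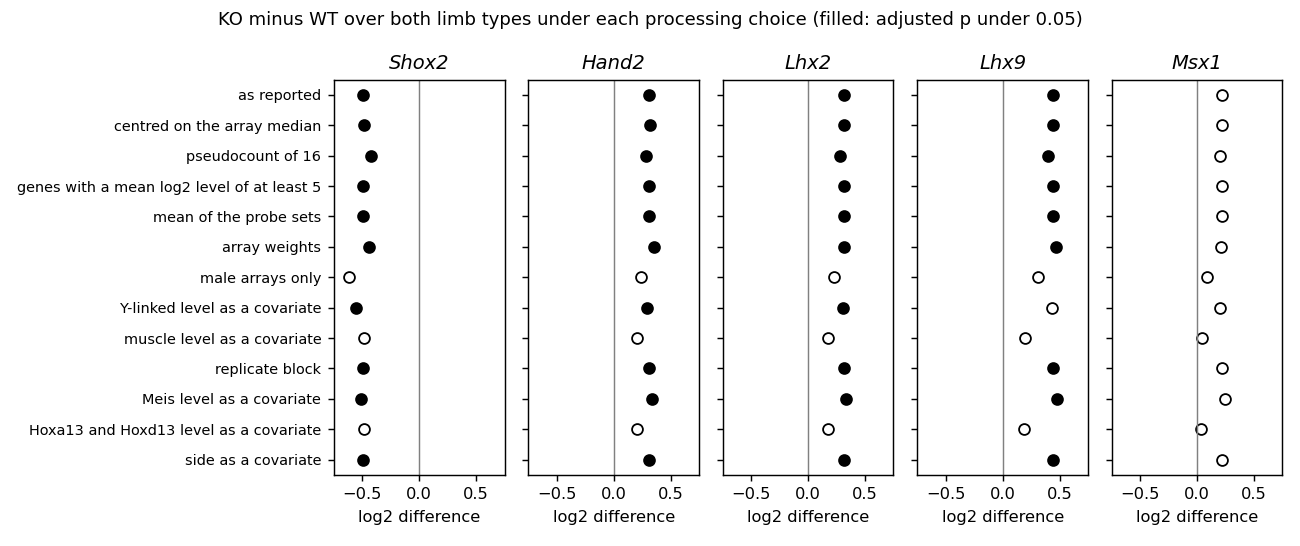
Log2 change in knockouts over both limb types (horizontal axes) for 5 of the factors, 1 panel each, under each processing choice (vertical axis), with filled points where the adjusted p is under 0.05. Shox2 stays below zero in every setting for the genotype over both limb types, and Hand2, Lhx2 and Lhx9 stay above it, while all 4 lose their calls with male arrays only, with the muscle covariate and with the Hoxa13 and Hoxd13 covariate.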

How the data were processed

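Total RNA from single limbs was labelled with biotin and hybridised to Affymetrix GeneChip 1.0 ST arrays, 5 per group, per the labels. The deposited values are linear intensities made by the authors with RMA, per the submitters' processing notes. Not given in the sources used here are the RMA version, annotation, genome build and array dates. Values were converted to log2 without a pseudocount, and nothing was scaled again, so changes rest on that normalization. Array medians ranged from 28.6 to 31.8 in intensity, and the number of arrays limits the precision. Of 35512 probe sets, 21789 carried 1 gene symbol in the platform annotation, and 1621 with several symbols, 12101 not named there and 1 empty were left out. The highest-mean probe set stood for each of 999 genes with several, which left 19938 genes.

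limma 3.58.1 in R 4.3.3 (lmFit, contrasts.fit, eBayes) was fitted to all genes with 4 group means, and the 6 comparisons were genotype over both limb types, in forelimbs and in hindlimbs, the difference of the last 2, and limb type in each genotype. The threshold was a Benjamini-Hochberg adjusted p of 0.05. The fit was tested on simulated data. Alternatives were array centring, a pseudocount of 16, a filter on dim genes, the mean of probe sets, array weights, male arrays only, covariates (Y-linked, muscle, Meis or Hox13 level, side), a block, fits on the compared groups only, and leaving out each array. The covariates for Meis, Hox13 and side were chosen after seeing the data.

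The 8 genes and all lists were chosen with earlier results of these data known. The naming rule took the 8 genes, Lmx1b, up to 4 others per list with the smallest p for genotype and for wild-type limb type, and per gene the 3 most correlated genes within groups. Those correlated genes had a mean log2 level of at least 5 and a name that is not provisional. Lmo4 was named outside the rule to complete a count, after its values were seen. Of 244 list entries, 10 had no probe set. Promoter sequence is RefSeq's on GRCm38.p6, and motifs were searched as exact letters on both strands with Python 3.11.15.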

Additional observations from a re-analysis of the deposited data

Results flagged for a closer look

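Of 36 sets of 5 arrays checked, for the 8 factors and Lmx1b in each group, 3 held an array far from the other 4, where chance gives about 1 in 20. Shox2 in wild-type forelimb replicate 1 was at 7.17 on the log2 scale, against 6.60 to 6.70 in the other wild-type forelimbs. Lhx9 in knockout forelimb replicate 4 was at 8.16, against 7.49 to 7.63 in the others. Msx1 on the same array was at 8.50, against 7.99 to 8.07.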

How the results depend on the processing

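The cause of each shift below was not tested. Genes called for the genotype over both limb types numbered 406, and 255 with centring, 768 with array weights, 67 with male arrays only, 100 with the muscle covariate, 623 with the Meis covariate and 171 with the Hox13 covariate. In forelimbs 253 became 37 (male), 139 (Y-linked level), 44 (muscle), 163 (only the groups compared) and 57 (Hox13). In hindlimbs 46 became 82 (weights) and 13 (male). For the difference of effects 4 became 2 (dim filter), 9 (weights), 2 (replicate block) and 0 with male arrays, muscle or Hox13. Between wild-type limb types 650 became 1260 (weights), 419 (male), 11 (muscle) and 49 (Hox13), and between knockout limb types 123 became 210 (weights), 13 (male), 37 (muscle) and 44 (only the groups compared). Of the 8 factors, 4 called over both limb types became 0 with male arrays, muscle or Hox13, 3 in forelimbs became 0 with these and with the Y-linked level or only the groups compared, 1 in hindlimbs became 0 with centring, male arrays, muscle, the block or Hox13, and 4 between wild-type limb types became 2 with the Y-linked level and 0 with muscle or Hox13. Leaving out single arrays gave 260 to 595 genes over both limb types, 124 to 436 in forelimbs, 33 to 54 in hindlimbs, 1 to 10 for the difference, 311 to 848 between wild-type and 60 to 140 between knockout limb types, and 2 to 4, 0 to 4, 0 to 1, 0 to 0, 1 to 4 and 0 to 0 of the 8 factors.

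Sides and numbers in the descriptions recur in every group. The 20 pairs that share them had correlations of deviations from -0.313 to 0.256, 8 above 0.1, and they were not treated as pairs. Some of these pairs join a wild-type to a knockout limb, and others a male to a female limb of the same genotype. The numbering thus does not mark limbs of the same embryo, and a block on it does not stand for embryo. No record of embryo or litter was used here. With side and number together as a replicate block, 393, 275, 46, 2, 628 and 115 genes and 4, 4, 0, 0, 3 and 0 factors were called in the same order of comparisons. Signs turned for changes that were not called, apart from Lhx9 between wild-type limb types, which became -0.059 with the muscle covariate. With muscle, Msx2 became -0.075 over both limb types, Meis1 0.30, Meis2 0.33 and Msx2 -0.078 in forelimbs, Meis1 -0.073, Meis2 -0.10 and Msx2 0.0062 for the difference, Meis1 0.45, Meis2 0.41, Msx2 -0.24 and Lmx1b -0.12 between wild-type limb types, and Hand2 -0.064, Lhx2 -0.15, Lhx9 -0.21, Msx1 -0.11 and Msx2 -0.23 between knockout limb types. With Hox13, Meis1 became 0.43 and Meis2 0.63 in forelimbs, -0.24 and -0.43 for the difference, 0.42 and 0.58 between wild-type limb types, and Msx2 -0.014 between knockout ones. Elsewhere, Meis2 in forelimbs became 0.0079 with centring and 0.0018 with the pseudocount, Msx1 and Msx2 in hindlimbs 0.037 and 0.0095 with the Meis covariate, and Lmx1b for the difference -0.010 with male arrays. Between knockout limb types Msx2 became -0.0051 with centring and -0.056 with weights, and Shox2 0.15 with male arrays and 0.0053 with the Y-linked level. Leaving out single arrays gave signs both ways in forelimbs for Meis1 (-0.16 to 0.12) and Meis2 (-0.11 to 0.14), in hindlimbs for Msx1 (-0.085 to 0.028) and Msx2 (-0.11 to 0.075), and between knockout limb types for Meis1 (-0.048 to 0.23), Meis2 (-0.11 to 0.14), Shox2 (-0.17 to 0.043), Lhx2 (-0.00495 to 0.11) and Msx2 (-0.067 to 0.12).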
